A study of Mus musculus with 4 samples.

Results

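The 10 genes described here encode the enzymes of the liver that turn cholesterol into bile acids and join bile acids to amino acids. They are Cyp7a1, Cyp8b1, Cyp27a1, Cyp7b1, Cyp39a1, Hsd3b7, Akr1d1, Slc27a5, Slc27a2 and Baat. They were found by symbol in the annotation of the array's probes, and all 10 were among the 16593 named genes measured. Where a gene has several probes, the one with the highest mean over the 4 arrays stands for it. The 10 genes have 14 probes, and 7 of the genes have a single probe. All 10 read above 100 units of intensity on every array, a level below which readings are treated here as dim.

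RNA extracted from whole livers was hybridised to Illumina arrays, 1 per sample. Both groups were untreated C57BL/6 mice at 4 weeks of age, which the labels call male. The 2 WT samples carried a floxed TAK1 gene without Cre, and the 2 TAK1 KO samples carried the same floxed gene with Alb-Cre, a recombinase driven by the albumin promoter, which is active in hepatocytes. Cre and the deletion therefore differ together between the groups. The comparison asks how the liver's RNA differs when hepatocytes lack TAK1, a kinase that acts downstream of receptors for cytokines, TGF-beta and microbial products. Separate animals are not stated for the 2 samples of a group, so p-values measure only the spread between these samples, which may be technical.

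Bile acids are made in hepatocytes by 2 routes. The classical route starts at Cyp7a1, its rate-limiting enzyme, and the alternative route starts with oxidation of the cholesterol side chain by Cyp27a1, followed by Cyp7b1. Both routes share the later ring enzymes Hsd3b7 and Akr1d1, and Cyp8b1 decides how much of the product is cholic acid. The products are activated to CoA esters and joined mainly to taurine in mice. Bile acids repress Cyp7a1 and Cyp8b1 through the nuclear receptor FXR (Nr1h4), its target SHP (Nr0b2) and the FGF receptor pair Fgfr4 and Klb, while LRH-1 (Nr5a2) and HNF4A (Hnf4a) drive them.

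Median intensities were 81.5 to 81.9 units on the 4 arrays. The number of arrays, 2 per group, limits the precision of every value below. Map3k7, which encodes TAK1, read 155 and 138.4 units on the WT arrays and 125.3 and 117.9 units on the TAK1 KO arrays (adjusted p = 0.116), and which part of the transcript its probe reads is not known here. Xist, the RNA of the inactive X chromosome of females, read 575 to 853.4 units over the 4 arrays on 1 probe, which did not pass (adjusted p = 0.253). Its other probe read 503.5 and 448.1 units on the WT arrays and 384.2 and 313.8 units on the TAK1 KO arrays, lower in TAK1 KO when every named probe was tested (log2 -0.45, adjusted p = 0.0320). Of the genes on the Y chromosome, Eif2s3y and Kdm5d read below 100 units on all 4 arrays, at 53.3 to 69.3 and 54.5 to 59.7 units, while Uty read 112.4 to 142.2 units. The Xist readings go against the male label in both groups. The dim Eif2s3y and Kdm5d readings go the same way, while Uty read above 100 units. The hepatocyte secreted proteins Apoa1, Ttr and Trf read 29576 units or more on every array, while the Alb probe read only 190.5 to 214.4 units.

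Of the 10 enzymes 9 were lower in TAK1 KO liver at an adjusted p under 0.05 in limma's moderated test, and the other, Cyp7a1, did not pass. This count holds on the deposited scale. Centring each array on 8 other hepatocyte enzymes left 3 lower and 1 higher, as given with those enzymes at the end. Those 8 were set apart after their values were seen, and their own median log2 difference was -0.71. Centring on them therefore raised the median of all genes to 0.71. In the same test 7.70% of all 16593 genes were lower and 10.5% were higher, and of the 7790 genes that read above 100 units on 2 or more arrays 15.8% were lower and 20.8% higher. The count of enzymes that were higher was 0, also at an unadjusted p under 0.05. The median log2 difference of the 10 enzymes was -0.81, against -0.0035 over all genes and 0.011 over the genes above 100 units. Both TAK1 KO arrays lay below both WT arrays for 9 of the 10, as they did for 26.6% of all genes and 33.9% of those above 100 units. In whole liver, fewer hepatocytes and less RNA per hepatocyte cannot be told apart.

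**Figure D1:**
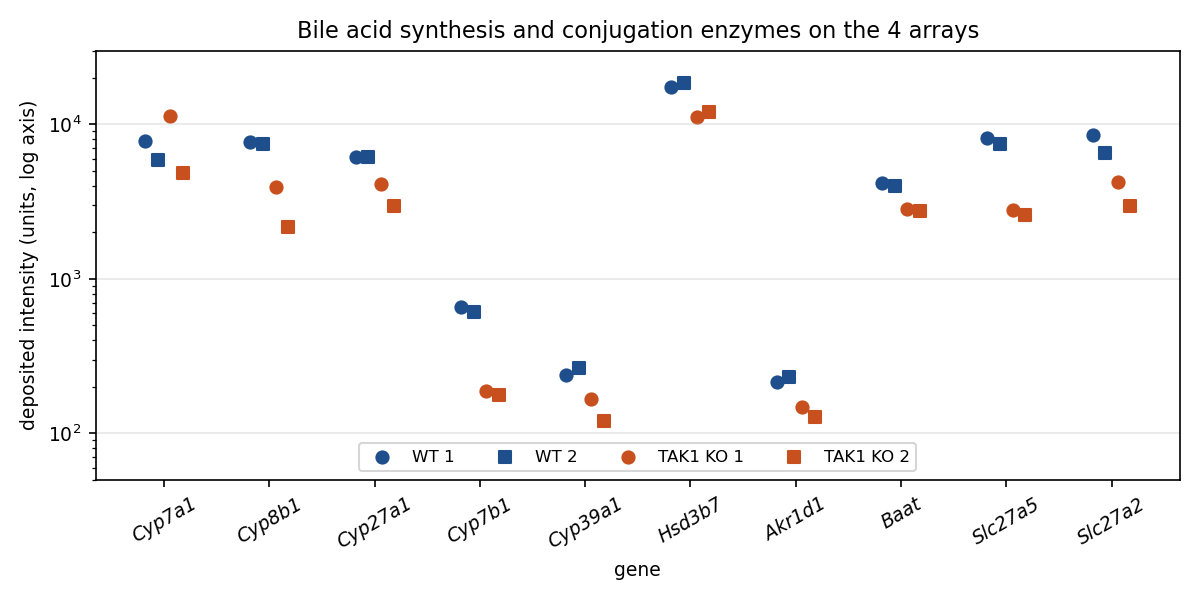
Deposited intensity of each enzyme on each of the 4 arrays, on a log axis in units of intensity, with WT in blue and TAK1 KO in orange, circles for replicate 1 and squares for replicate 2. For 9 enzymes both orange points lie below both blue points, while for Cyp7a1 the TAK1 KO readings of 11275 and 4857 units lie on either side of the WT readings of 7777 and 5890 units.

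Cyp7a1, the first and rate-limiting enzyme of the classical route, read 7777.4 and 5890.1 units on the WT arrays and 11274.8 and 4857.2 units on the TAK1 KO arrays. The groups overlapped, with the highest and the lowest readings both in TAK1 KO. The log2 difference was 0.13 ± 0.32 (SE, n = 2 per group, adjusted p = 0.873), and its 95% interval of -0.59 to 0.85 runs from 0.664-fold to 1.80-fold of the WT level. This interval leaves room for a change of Cyp7a1 in either direction. The value was set by single arrays. Its log2 difference was -0.48 without TAK1 KO replicate 1, 0.74 without TAK1 KO replicate 2 and -0.07 without WT replicate 2. With 1 array left in a group, that group's own spread cannot be measured. The moderated test then takes the spread from the other pair and from all genes, so only the sizes are given here. The same limit holds for every call, count and adjusted p given below with 1 array left out. There a call may be kept or lost by which pair sets the spread.

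Cyp8b1, the sterol hydroxylase that leads to cholic acid, read 7644.1 and 7494.8 units on the WT arrays and 3907.7 and 2175.4 units on the TAK1 KO arrays. The WT readings lay close together, and both TAK1 KO readings were lower, replicate 2 more so. The fall was 2.59-fold (log2 -1.37 ± 0.22 SE, n = 2 per group, adjusted p = 0.00235). The log2 ratio of Cyp8b1 to Cyp7a1 within an array was -0.02 and 0.35 in WT and -1.53 and -1.16 in TAK1 KO. The ratio thus fell by 1.50 on the log2 scale and did not overlap between the groups, and within each group it spread by an SD of 0.26, although Cyp7a1 alone differed by log2 1.21 between the TAK1 KO arrays. An exact permutation test, two-sided, of 2 against 2 arrays gave p = 0.333, the smallest it can give.

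The promoter of Cyp8b1 is shown because it holds letters known as sites for regulators measured on the same arrays. The sequence is that of RefSeq on GRCm38.p6, chr9:121916256-121916555, minus strand, from 250 bases before the gene's start to 50 after it. Capitals mark CAAAGTCCA, the core of the HNF4 motif, which overlaps CAAGGNCA, the core of the LRH-1 motif, and further on TATAAA.
Cyp8b1: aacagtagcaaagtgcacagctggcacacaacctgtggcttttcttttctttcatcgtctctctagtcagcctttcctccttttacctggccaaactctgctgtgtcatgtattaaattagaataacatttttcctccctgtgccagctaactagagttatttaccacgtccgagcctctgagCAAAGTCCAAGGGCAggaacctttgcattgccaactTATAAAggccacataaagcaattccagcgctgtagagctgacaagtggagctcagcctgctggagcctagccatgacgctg
Counted from the start of the gene, CAAAGTCCA lies at -67 to -59, CAAGGNCA at -60 to -53 and TATAAA at -31 to -26, all on the strand shown. On either strand, CAAAGTCCA occurs in 0.475%, CAAGGNCA in 6.71% and TATAAA in 13.6% of the 32851 promoters of the same length in that table. Hnf4a read 4763.1 and 5308.7 units on the WT arrays and 5410 and 4718.8 units on the TAK1 KO arrays, which overlap (log2 difference 0.0069 ± 0.11 SE, adjusted p = 0.983). Nr5a2, which encodes LRH-1, read 257.2 and 242.1 units on the WT arrays and 145 and 180.2 units on the TAK1 KO arrays, a fall of 1.53-fold (adjusted p = 0.00594) that no longer passed when WT replicate 1 was left out (adjusted p = 0.0714). A match of letters is a description and does not show that a factor binds there.

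In the alternative route, Cyp27a1, the mitochondrial enzyme that oxidises the sterol side chain, read 6157.3 and 6151.9 units on the WT arrays and 4101.6 and 2976.3 units on the TAK1 KO arrays. The WT pair was almost equal, and both TAK1 KO readings lay below it. The fall was 1.76-fold (log2 -0.82 ± 0.14 SE, adjusted p = 0.00357). Its other probes gave log2 differences of -0.86 and -0.99, and both passed when every named probe was tested (adjusted p = 0.00354 and 0.00104).

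Cyp7b1, the oxysterol hydroxylase that follows Cyp27a1, read 657.3 and 609.9 units on the WT arrays and 187.8 and 177.3 units on the TAK1 KO arrays. Readings within each group were close and the groups lay far apart. This was the largest fall of the 10 enzymes, 3.41-fold (log2 -1.77 ± 0.09 SE, 95% interval -1.99 to -1.56, adjusted p = 8.02e-06), and it ranked 38 among the falls of all 16593 genes. The log2 ratio of Cyp7b1 to Cyp27a1 was -3.22 and -3.33 in WT and -4.42 and -4.03 in TAK1 KO, a fall of the ratio by 0.95 (exact permutation test, two-sided, p = 0.333, the smallest possible). Cyp7b1 is known as a male-biased gene of mouse liver, and the Xist readings above differed between the groups on 1 of 2 probes. Their part in the Cyp7b1 values was not tested.

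Cyp39a1, which acts on an oxidised sterol that comes largely from brain, read 236.8 and 265.2 units on the WT arrays and 166.3 and 120.2 units on the TAK1 KO arrays. The groups did not overlap, and the fall was 1.75-fold (log2 -0.81 ± 0.14 SE, adjusted p = 0.00427). This call was lost without WT replicate 2 (log2 -0.73, adjusted p = 0.0655). The other probe of Cyp39a1 stayed between 66.5 and 75.1 units, below 100 units on all 4 arrays, and the mean of both probes gave a log2 difference of -0.46 (adjusted p = 0.0199).

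Among the ring enzymes shared by both routes, Hsd3b7, which starts the conversion of the sterol ring, read 17434.2 and 18625.6 units on the WT arrays and 11249.6 and 12060 units on the TAK1 KO arrays. Both groups were tight and well separated, with a fall of 1.55-fold (log2 -0.63 ± 0.10 SE, adjusted p = 0.00173). Its other probe fell by 0.83 on the log2 scale (adjusted p = 0.000343). Akr1d1, the reductase that gives bile acids their bent ring, read 213.2 and 232.5 units on the WT arrays and 147.8 and 127.7 units on the TAK1 KO arrays. It fell 1.60-fold (log2 -0.68 ± 0.11 SE, adjusted p = 0.00201), with no overlap of the groups.

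The promoter of Hsd3b7 is shown because it holds a looser form of the HNF4 motif than that of Cyp8b1. It is on GRCm38.p6 at chr7:127800359-127800658, plus strand, and capitals mark CAAAGNNCA, which on the opposite strand also contains AAGGNCA.
Hsd3b7: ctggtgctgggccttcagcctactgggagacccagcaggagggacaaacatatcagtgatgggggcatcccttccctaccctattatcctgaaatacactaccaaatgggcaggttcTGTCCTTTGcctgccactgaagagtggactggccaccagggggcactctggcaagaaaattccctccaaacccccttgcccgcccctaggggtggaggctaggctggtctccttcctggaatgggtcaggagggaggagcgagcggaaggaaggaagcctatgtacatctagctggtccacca
CAAAGNNCA lies at -133 to -125 from the start, on the opposite strand, and the overlapping AAGGNCA at -133 to -127. Of all 32851 promoters, 6.36% hold CAAAGNNCA and 20.3% hold AAGGNCA.

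Slc27a5, the ligase that activates bile acids returning to the liver, read 8116.2 and 7436.4 units on the WT arrays and 2796.9 and 2601.1 units on the TAK1 KO arrays. The groups were far apart relative to their spread, with a fall of 2.88-fold (log2 -1.52 ± 0.10 SE, adjusted p = 1.91e-05). Slc27a2, a related ligase of very long chain fatty acids that also activates bile acid precursors, read 8603.8 and 6549.5 units on the WT arrays and 4252.1 and 2948.7 units on the TAK1 KO arrays. It fell 2.12-fold (log2 -1.08 ± 0.18 SE, adjusted p = 0.00288), and both of its groups were wide without overlapping.

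The promoter of Slc27a2 is shown for a single nuclear receptor half-site. It is on GRCm38.p6 at chr2:126552774-126553073, plus strand, and capitals mark the half-site AGGTCA on the opposite strand.
Slc27a2: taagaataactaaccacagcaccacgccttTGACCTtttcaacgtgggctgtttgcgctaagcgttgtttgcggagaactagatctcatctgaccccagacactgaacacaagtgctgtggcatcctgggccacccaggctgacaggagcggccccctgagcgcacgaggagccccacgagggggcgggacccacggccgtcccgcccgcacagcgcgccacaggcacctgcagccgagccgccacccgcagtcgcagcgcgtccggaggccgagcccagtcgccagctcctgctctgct
The half-site lies at -220 to -215 and occurs in 16.3% of the 32851 promoters. The promoter of Akr1d1, not shown, also holds it, at -210 to -205 and -232 to -227 on the opposite strand. In Slc27a2 it is part of a match to AAGGNCA at -220 to -214 on the same strand, the pattern also found in the promoters of Hsd3b7 and Cyp8b1. In all, 13 motifs were searched on both strands in the promoters of Cyp8b1, Cyp27a1, Hsd3b7, Akr1d1 and Slc27a2, the 5 members in the table. They were chosen while the sequences were in view. Besides those named, they were an inverted repeat of nuclear receptor half-sites with 1 base between them (0 of the 5 promoters, 0.00609% of all), TTATGTAA (0, 0.938%), TTANGTAA (0, 2.32%), TTANNTAA (0, 6.00%), TTGCATAA (1, 0.743%), CCAAT (1, 37.4%) and GGGCGG (3, 35.7%). TTATGTAA and TTANGTAA are contained in TTANNTAA, and AAGGNCA in CAAGGNCA. Of the motifs shown, CAAAGTCCA, CAAGGNCA and TATAAA were each in 1 of the 5 promoters, CAAAGNNCA and AGGTCA in 2, and AAGGNCA in 3.

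Baat, which joins the activated bile acid to taurine or glycine, read 4158.4 and 3993.7 units on the WT arrays and 2827.9 and 2761.6 units on the TAK1 KO arrays. Its readings were tight within groups and did not overlap. Its fall, 1.46-fold (log2 -0.54 ± 0.09 SE, adjusted p = 0.00293), was the smallest of the 9. The log2 ratio of Slc27a5 to Baat was 0.96 and 0.90 in WT and -0.02 and -0.09 in TAK1 KO. The ligase therefore fell by 0.98 more than the conjugating enzyme on the log2 scale, with SDs of 0.05 within both groups (exact permutation test, two-sided, p = 0.333, the smallest possible). The 3 ratios given here, of Cyp8b1 to Cyp7a1, Cyp7b1 to Cyp27a1 and Slc27a5 to Baat, were chosen after the values were seen.

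**Figure D2:**
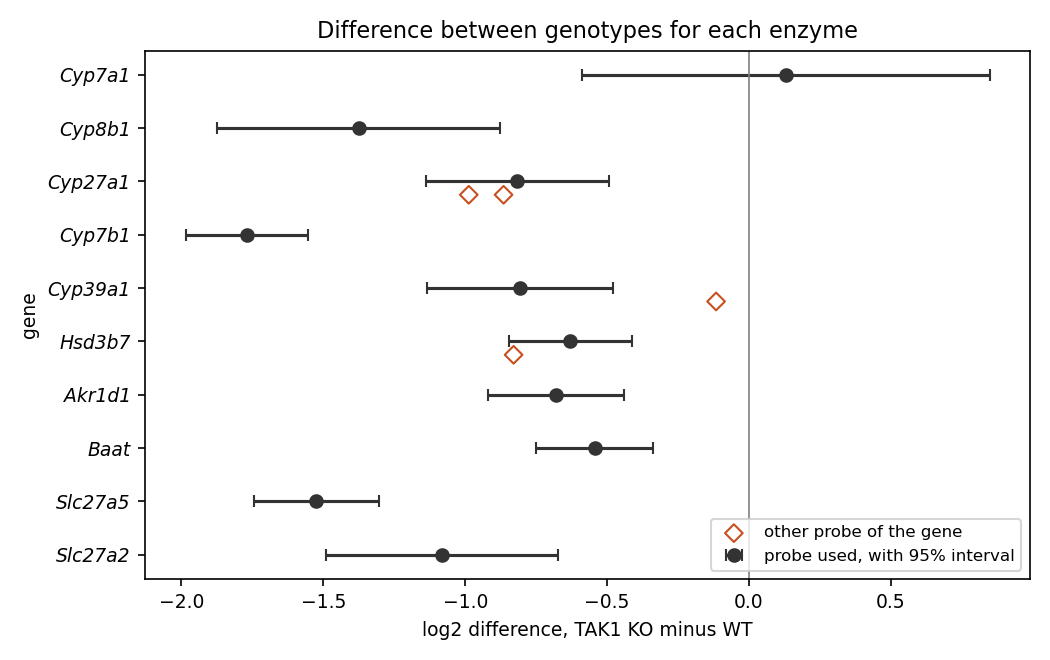
Log2 difference of each enzyme between TAK1 KO and WT, with its 95% interval from limma (n = 2 per group) as bars and the other probes of Cyp27a1, Cyp39a1 and Hsd3b7 as open diamonds. Cyp7b1 at -1.77 and Slc27a5 at -1.52 lie lowest, the interval of Cyp7a1 from -0.59 to 0.85 spans 0, and the other 9 intervals lie below 0 on the deposited scale.

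In order of size, the falls were those of Cyp7b1, Slc27a5, Cyp8b1, Slc27a2, Cyp27a1, Cyp39a1, Akr1d1, Hsd3b7 and Baat. The 95% intervals of neighbours in this order overlap throughout, so their order is not resolved between neighbours. The interval of Cyp7b1 (-1.99 to -1.56) does not overlap those of Cyp27a1 (-1.14 to -0.49), Cyp39a1, Akr1d1, Hsd3b7 or Baat (-0.75 to -0.34), nor that of Slc27a2 (-1.49 to -0.67).

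The enzymes also differed in how far apart the TAK1 KO arrays lay. Replicate 2 read lower than replicate 1 for 9 of the 10 enzymes, the exception being Hsd3b7, whereas 49.7% of genes above 100 units read lower in replicate 2. Between the WT arrays replicate 2 read lower for 7 of the 10. The gap was log2 1.21 for Cyp7a1, 0.84 for Cyp8b1, 0.53 for Slc27a2, 0.46 for Cyp27a1 and 0.45 for Cyp39a1. For the other 5 it was 0.03 to 0.20. A gap as large as that of Cyp7a1 was found in 0.218% of genes above 100 units, and one as large as that of Cyp8b1 in 0.706%. The median gap of the 10 enzymes was 0.33 between the TAK1 KO arrays and 0.11 between the WT arrays, against 0.12 and 0.11 for all genes above 100 units.

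**Figure D3:**
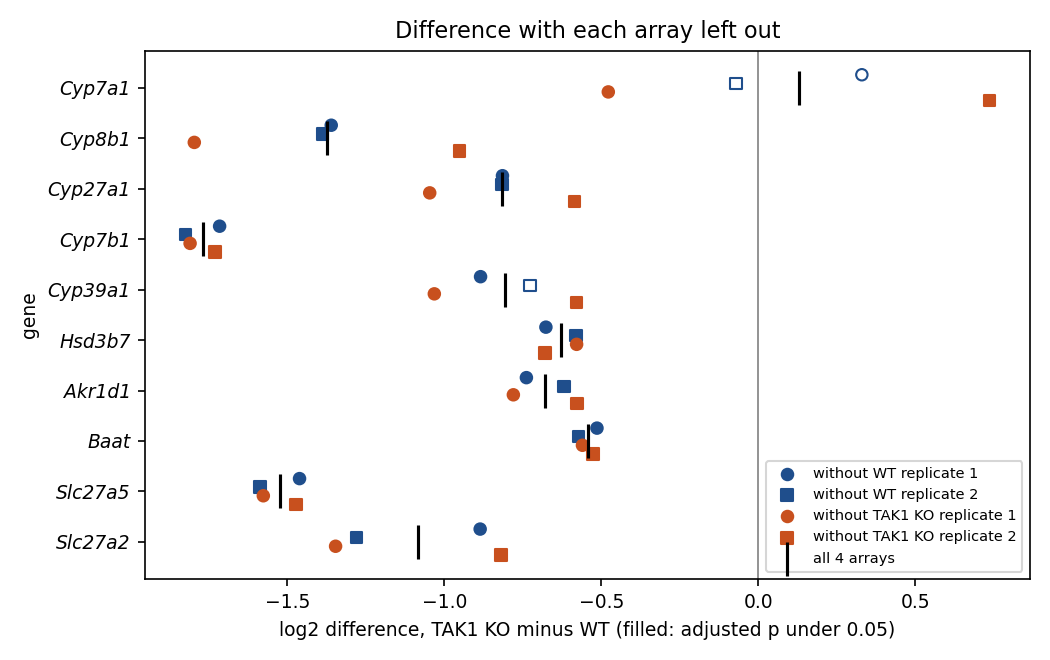
Log2 difference of each enzyme with each array left out in turn, filled where the adjusted p is under 0.05 and open otherwise, with the value from all 4 arrays as a bar. Cyp7a1 moves from -0.48 to 0.74 and changes sign, while the other 9 stay below 0, with Cyp39a1 missing the threshold at -0.73 without WT replicate 2.

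Cyp7a1 has a strong daily rhythm that is driven in part by the clock-controlled factor DBP, and several genes of the clock also differed between arrays of 1 group. Dbp itself read 4263.7 and 2185.1 units on the WT arrays and 4893.2 and 789.2 units on the TAK1 KO arrays, lower in replicate 2 of both groups, as was Cyp7a1. Its relative Tef read 1096.4 and 659.9 units on the WT arrays and 928.2 and 368.8 units on the TAK1 KO arrays, in the same order. The clock-controlled gene Ciart read 256 and 289.9 units on the WT arrays and 557.8 and 121.1 units on the TAK1 KO arrays, and Usp2 read 186.6 and 196.5 units on the WT arrays and 544 and 151.6 units on the TAK1 KO arrays. Arntl, which encodes the activator BMAL1, ran the other way, with 165.9 and 212.4 units on the WT arrays and 100.8 and 289.3 units on the TAK1 KO arrays. Over all genes 7.70% fell, and 15.8% of those above 100 units. Of 18 clock and PAR bZIP genes measured 2 fell (Nr1d1 and Cry2), near those shares, and 16 did not pass. The median log2 difference of these 18 was -0.04. Without TAK1 KO replicate 1, 7 of them fell and 1 rose, and without TAK1 KO replicate 2, 4 fell and 6 rose. Without WT replicate 1, 1 fell, since Cry2 no longer passed (adjusted p = 0.196). The hour at which the livers were taken is not given in the labels, and its part in the Cyp7a1 and Cyp8b1 values was not tested. For Cyp8b1 the fall was 3.47-fold without TAK1 KO replicate 1 and 1.94-fold without TAK1 KO replicate 2.

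**Figure D4:**
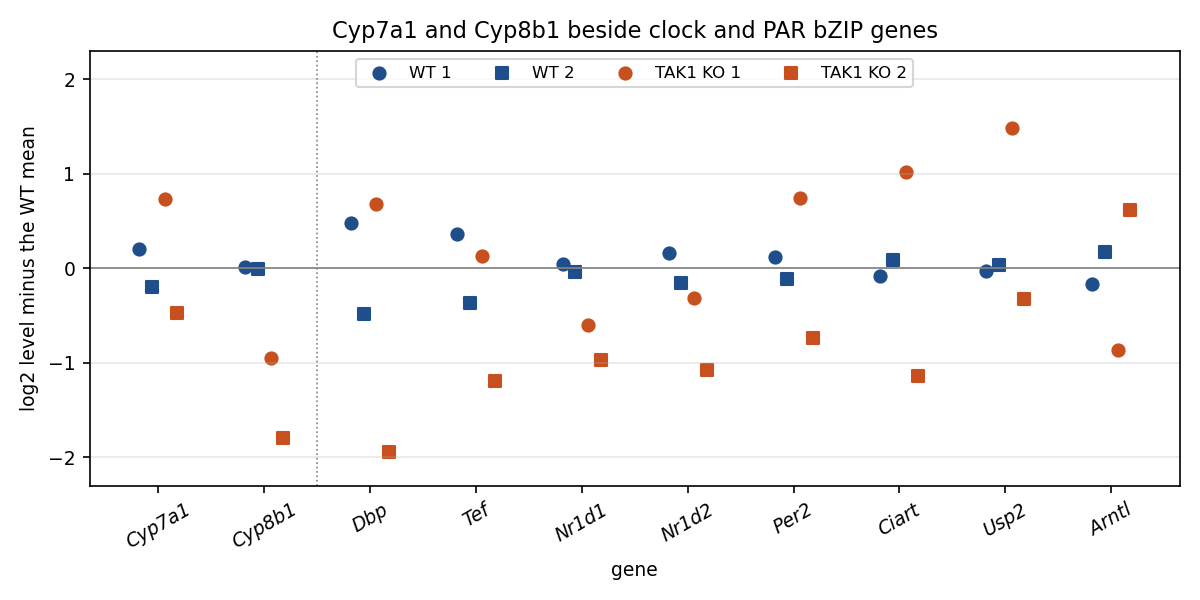
Log2 level of Cyp7a1, Cyp8b1 and 8 clock or clock-controlled genes on each array, as the difference from the gene's WT mean, with WT in blue, TAK1 KO in orange, circles for replicate 1 and squares for replicate 2. The orange circle lies above the orange square for Cyp7a1 as for Dbp, Tef, Ciart and Usp2, and below it for Arntl, whose TAK1 KO readings were 100.8 and 289.3 units.

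The counts of the lists below stand beside 7.70% of all genes lower and 10.5% higher. Among genes above 100 units the shares were 15.8% and 20.8%. Other steps of the pathway changed less uniformly. The list held 14 genes placed with oxysterol formation, ring reduction, muricholate formation or peroxisomal side-chain shortening, some of which also act outside bile acid synthesis. Of these 5 fell, 1 rose and 8 did not pass, with a median log2 difference of -0.24. Akr1c14, a hydroxysteroid dehydrogenase, read 1412 and 1354.7 units on the WT arrays and 393.3 and 359.1 units on the TAK1 KO arrays, a fall of 3.65-fold (adjusted p = 6.98e-06). Its relative Akr1c6 fell 1.95-fold, and the thioesterase Acot12 read 803.7 and 589.5 units on the WT arrays and 395.8 and 296.1 units on the TAK1 KO arrays and passed too (adjusted p = 0.00323). The peroxisomal sterol carrier Scp2 and the assembly factor Pex2 fell by 0.41 and 0.47 on the log2 scale. The peroxisomal oxidation enzymes Acox2 and Hsd17b4 gave log2 differences of -0.07 ± 0.10 and -0.15 ± 0.10 (SE), and Cyp2c70, which makes muricholic acids in mice, -0.15 ± 0.09, none of which passed. Ch25h, an oxysterol enzyme of macrophages, read 58.7 and 65.7 units on the WT arrays and 104.9 and 105.5 units on the TAK1 KO arrays, at least 1.05-fold higher (adjusted p = 0.000889). The falls numbered 3 without either WT array.

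Of 9 measured genes that supply electrons or sterols 3 fell, 1 rose and 5 did not pass (median log2 difference -0.07). The sterol carrier Stard4 fell 1.94-fold (adjusted p = 0.00117) and the plasma enzyme Lcat 1.42-fold (adjusted p = 0.00389). Stard5 fell 1.45-fold (adjusted p = 0.0412), a call lost without WT replicate 1 (0.297), WT replicate 2 (0.0642) and TAK1 KO replicate 2 (0.100). Npc2, a lysosomal sterol carrier, rose 1.34-fold (adjusted p = 0.0206), and no longer passed without WT replicate 1 (0.0558), WT replicate 2 (0.164) and TAK1 KO replicate 1 (0.0580).

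Of 22 measured regulators 6 fell and 16 did not pass, with a median log2 difference of -0.10. The nuclear receptor CAR (Nr1i3) fell 1.79-fold (adjusted p = 0.00297), and Klb, the partner of Fgfr4, read 411.3 and 447.9 units on the WT arrays and 277 and 230.9 units on the TAK1 KO arrays, a fall of 1.69-fold (adjusted p = 0.0016). Nr1h4, the bile acid receptor FXR, read 2793.7 and 3022.6 units on the WT arrays and 2275 and 1597.7 units on the TAK1 KO arrays and passed (log2 -0.61 ± 0.15 SE, adjusted p = 0.0232). It no longer passed without WT replicate 1 (0.109), WT replicate 2 (0.178) and TAK1 KO replicate 2 (0.0515). Nr0b2, the FXR target SHP, read 53 and 57.2 units on the WT arrays and 63.8 and 52.8 units on the TAK1 KO arrays, below 100 units on every array, and so did Fgfr4 at 71.3 to 83.6 units. No fold is given for these. The falls of regulators numbered 2 without WT replicate 1.

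Of 15 measured transporters of bile acids and sterols 7 fell, 2 rose and 6 did not pass (median log2 difference -0.60). The uptake carriers Slco1b2 and Slc10a1 fell 2.86-fold and 2.38-fold, the bile salt export pump Abcb11 fell by 0.76 on the log2 scale (adjusted p = 0.00386), and the sterol exporters Abcg8 and Abcg5 fell 3.46-fold and 2.45-fold. Slc51b, which exports bile acids to blood, rose 2.26-fold, and Abcb4, which moves phospholipid into bile, rose 1.65-fold.

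**Figure D5:**
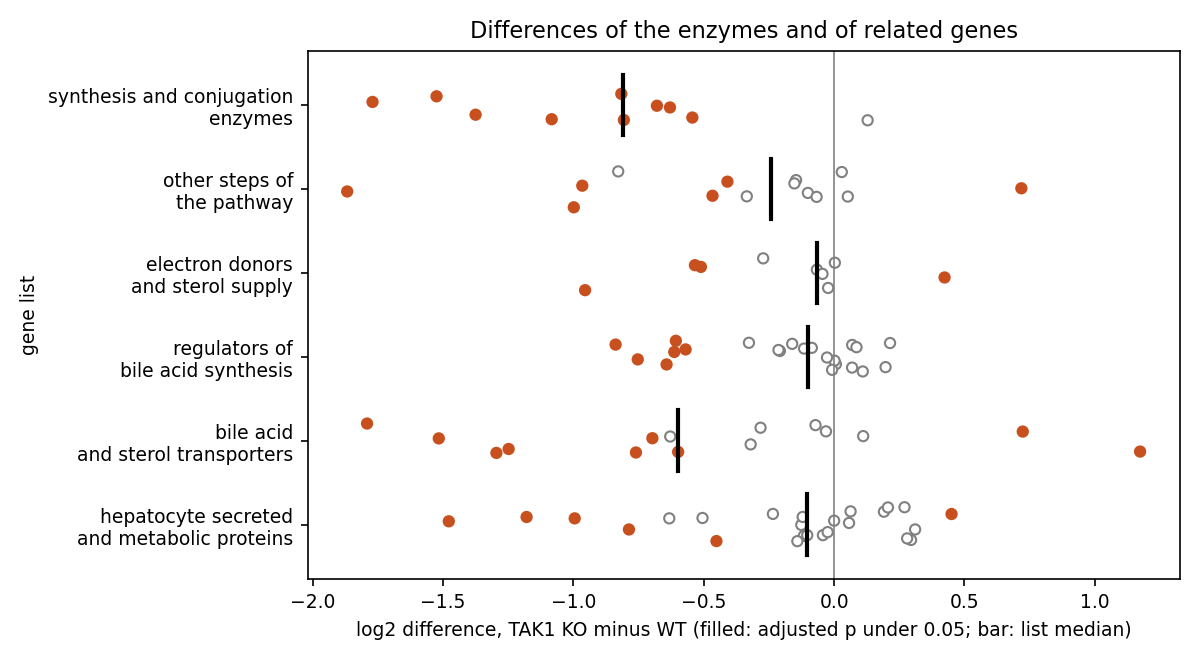
Log2 differences between TAK1 KO and WT for the enzymes and 5 related lists, 1 point per gene, filled where the adjusted p is under 0.05, with the list median as a black bar. The enzymes have the lowest median at -0.81, the transporters follow at -0.60, and the hepatocyte secreted and metabolic proteins lie at -0.10, which joins 8 metabolic enzymes at -0.71 and 17 secreted proteins at 0.00031.

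Markers of some other cells moved in the same livers. Of 18 macrophage and monocyte markers 13 rose and 5 did not pass (median log2 0.96), and their summed intensity was 11092 to 11793 units in WT and 26153 to 27359 units in TAK1 KO. Without TAK1 KO replicate 2, 1 of them fell. Of 16 markers of stellate cells and fibroblasts 10 rose and 6 did not pass (median 0.79, sums 10510 to 11258 and 21616 to 25600 units). Among 8 bile duct markers 3 rose, which were Krt23, Sox9 and Cldn4, the last below 100 units on every array, and Krt7 and Krt19 did not pass. The median was 0.26, with sums of 885.5 to 1129 and 1631 to 1702 units. Only 2 of these 8 read above 100 units on 2 or more arrays. Of 12 lymphocyte and neutrophil markers 2 rose, S100a8 and S100a9 (median -0.02, sums 958.3 to 1118 and 1560 to 1818 units). This count is near the share of genes that rose, 10.5% of all and 20.8% of those above 100 units. Only 2 of the 12 read above 100 units on 2 or more arrays, so the median rests on dim readings. Of 12 sinusoidal endothelial markers 3 fell, which were Lyve1, Oit3 and Mrc1, and 1 fell when either WT array was left out (median -0.04, sums 9055 to 9114 and 9130 to 9281 units). Values of the array are never 0, so no marker read 0.

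Of 25 hepatocyte secreted and metabolic proteins 5 fell, 1 rose and 19 did not pass, with a median log2 difference of -0.10 and summed intensities of 425801 to 433314 units in WT and 457953 to 460042 units in TAK1 KO. The falls were those of Tdo2 (2.79-fold), Otc (2.26-fold), G6pc (1.99-fold), Hpd (1.72-fold) and Apoh, enzymes of amino acid and glucose metabolism and a plasma apolipoprotein. The rise was that of the apolipoprotein Apoa2 (1.37-fold), which no longer passed without WT replicate 1 (adjusted p = 0.0695), and 3 proteins rose without TAK1 KO replicate 2. The list joins proteins that moved differently. Its 8 metabolic enzymes (Cps1, Otc, Ass1, Tat, Hpd, Tdo2, Pck1 and G6pc) had a median log2 difference of -0.71, from -1.48 to 0.06, and 4 of them fell, while its 17 secreted proteins had a median of 0.00031, from -0.45 to 0.45, with 1 fall and 1 rise. This split was made after the values were seen and has no test. Centring each array on the median of all 25 proteins raised the median of all genes to 0.12. Then 9 enzymes were still lower, from -0.42 for Baat (adjusted p = 0.0166) to -1.65 for Cyp7b1 (adjusted p = 5.55e-11). Cyp7a1 lay at 0.25 (adjusted p = 0.460). The spread that limma shares over genes was estimated anew under each scaling, so these p-values are not comparable with those of the main fit. When each array was centred on the 8 metabolic enzymes instead, a scaling added after the values were seen, the median of all genes rose to 0.71 and 15051 genes passed. Of the bile acid enzymes 3 were then lower, Cyp7b1 at -1.06, Slc27a5 at -0.82 and Cyp8b1 at -0.67, and Cyp7a1 was higher at 0.84 (adjusted p = 0.000413). Hsd3b7, Akr1d1 and Baat turned to 0.080, 0.030 and 0.17 and did not pass. Both scalings move all genes of an array by 1 amount, so differences relative to the median of all genes stay as they were. The part of the other cell types in the falls was not tested.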

How the data were processed

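Liver RNA was isolated with Trizol and a QIAGEN column clean-up with DNase I, and labelled as biotinylated cRNA, per the labels' protocols. The authors deposited linear intensity values normalized between arrays, by a method that the sources used here do not give. A second deposited table has 4 columns whose names match no sample, and they were not used. Each sample's title gave its group and replicate number, and the labels name no batch.

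Background was corrected with normexp (offset 50) in limma 3.58.1 (R 4.3.3), and log2 values were compared with lmFit and eBayes, two-sided, with 2 residual and 6.84 prior degrees of freedom and Benjamini-Hochberg adjustment over all 16593 genes at a threshold of 0.05. Fold changes therefore understate dim genes. No quantile step was added, since the table was already normalized. Every adjusted p is limma's unless another test is named. The prior was estimated anew under each alternative setting, so p-values of different settings are not directly comparable. Where both arrays of 1 group lay below 100 units, a bound is given ("at least"), with the dim values set to that array's lowest reading above 100 units. The annotation names 1 gene for 23978 of 25697 probes, several for 0, and 1719 stayed unnamed. Current symbols came from RefSeq's GRCm38.p6 table, in which 16582 gene identifiers were found and 11 were not.

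Named genes were, by rule, the 10 members, Map3k7, Nr0b2, Nr1h4, Nr5a2, Hnf4a, and in each list up to 4 passed genes with the largest change plus up to 2 against the majority. The text does not give all of them, and other genes were chosen after their values were seen. The members and all lists were chosen with earlier results of these data known. On simulated data with 200 changed genes in each of 20 sets, 38.1% of log2 changes of 0.5, 98.8% of 1 and 100% of 2 were called, with 4.91% false calls. The simulated spreads were drawn from limma's own fitted prior with independent errors, so a low share of false calls was built in. It checks the code and does not show how the test does on these samples. Alternatives covered background, scaling, filter, probe choice, prior, replicate block and each array left out, and, added after the data were seen, centring on 8 hepatocyte enzymes.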

Additional observations from a re-analysis of the deposited data

How the results depend on the processing

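The count of enzymes that were lower stayed at 9 under 8 other settings that kept 4 arrays, and was 8 to 10 with 1 array left out, where 0 to 1 were higher. Centring on 8 hepatocyte enzymes, chosen after seeing the data, moved the median of all genes to 0.71, and 15051 genes passed, 99.0% of them higher (main 57.7%, 74.7% with centring on all 25 hepatocyte proteins). It gave 3 enzymes lower and 1 higher, and turned Akr1d1 (0.030), Baat (0.17), Hsd3b7 (0.080), Cry2 (0.20), Lcat (0.20), Map3k7 (0.45), Nfil3 (0.067), Nr1h4 (0.10), Nr5a2 (0.10) and Stard5 (0.18), as this shift is added to every gene. The log2 difference of Cyp7a1 turned to -0.48 without TAK1 KO replicate 1 and was 0.74 without TAK1 KO replicate 2. Genes that passed numbered 3022, and 1800 to 3311 with 1 array left out, the lowest without WT replicate 2. The replicate numbers share only a label (same-numbered arrays deviated together at r = 0.0446), and with the replicate block 3073 genes passed, 9 enzymes were lower and 0 higher. Over the 48 named genes and 13 alternatives, 40 of 623 values lost their call, 4 gained one and 11 reversed; beyond the shift, the cause was not tested. Among list counts under the other settings, normexp with an offset of 16 gave 3 falls in other pathway steps (main 5), 1 in the clock (main 2), 1 in endothelial markers (main 3), and 0 rises in sterol supply and in hepatocyte proteins (main 1 each). The mean of all probes gave 3 falls in other pathway steps and 2 rises in hepatocyte proteins. The clock falls were 4 with the block, the male-biased falls 3 with the robust prior (main 6), which also gave 3 hepatocyte rises and 1 endothelial fall. Quantile normalization gave 0 hepatocyte rises; centring on hepatocyte proteins gave 5, with 6 bile duct rises (main 3) and 1 endothelial fall. Among genes above 100 units, 1 bile duct marker rose. Sterol supply rises were 0 without either WT array or TAK1 KO replicate 1. The offset of 16 moved Cyp7b1 to -1.98, Cyp39a1 to -0.99 and Akr1d1 to -0.84.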

Other observations

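Because Cyp7b1 is known as a male-biased gene, other genes with a known sex bias in mouse liver were read beside it. The mice were 4 weeks old, and whether these biases hold at that age was not tested. Above 100 units on 2 or more arrays were 12 of 17 male-biased and 9 of 17 female-biased genes. Of 17 measured male-biased genes 6 fell, 3 rose and 8 did not pass (median log2 difference -0.12). The serine protease inhibitor Serpina1e read 9034.1 and 4597.8 units on the WT arrays and 1603.6 and 1354.2 units on the TAK1 KO arrays, a fall of 4.36-fold, and Nudt7, a peroxisomal CoA diphosphatase, fell 2.82-fold. With a robust prior that follows intensity, the Serpina1e call was lost (adjusted p = 0.0587). The steroid hydroxylase gene Cyp2d9 went the other way, with 1997.2 and 1842.7 units on the WT arrays and 5386.3 and 5081 units on the TAK1 KO arrays, a rise of 2.72-fold, and the complement gene C6 rose 1.88-fold. Of 17 measured female-biased genes 5 fell and 12 did not pass (median -0.20), and 8 fell without TAK1 KO replicate 1. Cyp2b13 read 3410.9 and 5332.2 units on the WT arrays and 101.5 and 102.9 units on the TAK1 KO arrays, a fall of 40.0-fold. Its TAK1 KO readings lie just above 100 units, so the size of this fold depends on the background correction. Hao2, a peroxisomal oxidase, fell 2.48-fold. The falls were 6 of 17 male-biased and 5 of 17 female-biased genes, and the rises 3 and 0. Over all genes 7.70% fell and 10.5% rose, and of those above 100 units 15.8% fell and 20.8% rose. The part of sex in these values was not tested.

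Abcd3, which carries bile acid precursors into peroxisomes, read 4275.2 and 4843 units on the WT arrays and 4095.7 and 1601.2 units on the TAK1 KO arrays, so that 1 TAK1 KO array lay near WT and the other far below it (adjusted p = 0.142).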
